A study of Mus musculus with 45 samples.

Results

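The 65 genes described here carry the names of subunits of complexes I, II and III of the mitochondrial respiratory chain and of complex V, the ATP synthase. They were chosen by name. All genes whose array symbol starts with Ndufa, Ndufb, Ndufc, Ndufs, Ndufv, Uqcr or Atp5 were taken, with Sdha, Sdhb, Sdhc and Sdhd, and the Ndufaf assembly factors were left out. Of the 18194 genes of the series, 36 fell in complex I, 4 in complex II, 8 in complex III and 17 in complex V. Ndufa4, later assigned to cytochrome oxidase, and its paralogue Ndufa4l2 are counted in complex I by name. The rule used no measured value. It holds no gene of the mitochondrial genome and leaves out nuclear subunits with other names, such as Cyc1 of complex III.

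The levels were measured on 45 Affymetrix arrays, 3 in each of 15 groups, that followed heart development in the mouse. Stages are named by embryonic day (E). The adult group, the group 3 days after birth (day 3) and the groups at E18.5, E14.5, E12.5 and E9.5 each held left and right ventricles of wild type CD1 mice on separate arrays. The E8.5 group held heart tubes and the E7.5 group whole embryos, both of CD1 mice. The earliest group was embryonic stem cells (ESC) of R1, a single cell line, so that the step from ESC to E7.5 changes the source of the RNA together with the stage, and the 2 cannot be told apart. The steps to E8.5 and E9.5 likewise change the dissected tissue with the stage. The label gives the adults no age in days. Pools of 30 to 50 embryos or hearts made a replicate through E9.5. Pools were of 10 to 20 hearts for E12.5 or E14.5 and of 3 to 5 for E18.5. Day 3 and adult replicates came from 1 heart, which was frozen and crushed first. Values are log2 levels as the authors deposited them, normalized by RMA (robust multi-array average), so that a difference of 1 is 2-fold. Levels of different probe sets are not comparable as amounts, and genes are compared by their differences.

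Complex I takes electrons from NADH and complex II takes them from succinate. Both pass them to ubiquinone, complex III passes them on to cytochrome c, and complexes I and III pump protons across the inner membrane. Complex V lets the protons flow back and makes ATP. Complex II is also the succinate dehydrogenase of the citric acid cycle and pumps no protons. The adult heart is among the tissues richest in mitochondria and makes most of its ATP in this way, mainly from fatty acids, whereas the embryonic heart relies more on glycolysis.

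The tissue labels were checked against marker lists. The mean level of 14 cardiomyocyte markers lay between 5.63 and 5.75 on the ESC arrays, between 5.40 and 5.70 at E7.5, between 12.27 and 12.57 at E8.5 and between 13.56 and 13.67 on the adult arrays. That of 10 pluripotency markers lay between 11.25 and 11.30 on the ESC arrays and between 5.18 and 5.34 on the adult arrays. On 6 arrays the markers of some other tissue exceeded, on average, those of the remaining replicates by more than 1.5 log2 units. Adult left 2 and right 3 were marked by the atrial list and E7.5 replicate 2 by the erythroid list. E8.5 replicate 2, E14.5 left 2 and E18.5 left 2 were marked by the list named for visceral endoderm, which does not settle the tissue. All comparisons of stages made without these arrays kept their counts of called members within 1.5 times. The ventricle comparisons that did not are given below. RMA gives every array nearly the same distribution of values, and the medians of the 45 arrays lay between 5.35 and 5.47. In bulk tissue, fewer cells of a type and less RNA per cell cannot be told apart.

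The genes rose together over development. Relative to each gene's mean at E9.5, the median over the 65 genes was -0.87 in ESC, -0.71 at E7.5, -0.47 at E8.5, 0.15 at E12.5, 0.37 at E14.5, 0.75 at E18.5, 0.89 at day 3 and 0.99 in the adult. Of the 65 genes, 47 had their highest stage mean in the adult, 14 at day 3, 3 at E18.5 and 1 at E8.5. The lowest stage mean was in ESC for 48 genes, at E7.5 for 14, at E9.5 for 2 and at E8.5 for 1. In 29 genes the mean of each stage lay above that of the stage before it. Over the 27 stage values (9 stages, 3 each), each gene was correlated with the median of the other members whose mean level was over 10. The Pearson correlation was over 0.9 in 62 of the 65 genes. The exceptions were Ndufb1 (0.86), Ndufa4l2 (0.73) and Ndufb4 (0.02). They were also the genes with a mean level under 10, so that the median they were set against did not include them. This correlation describes a shared course across stages that differ in tissue, and the points share arrays.

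**Figure D1:**
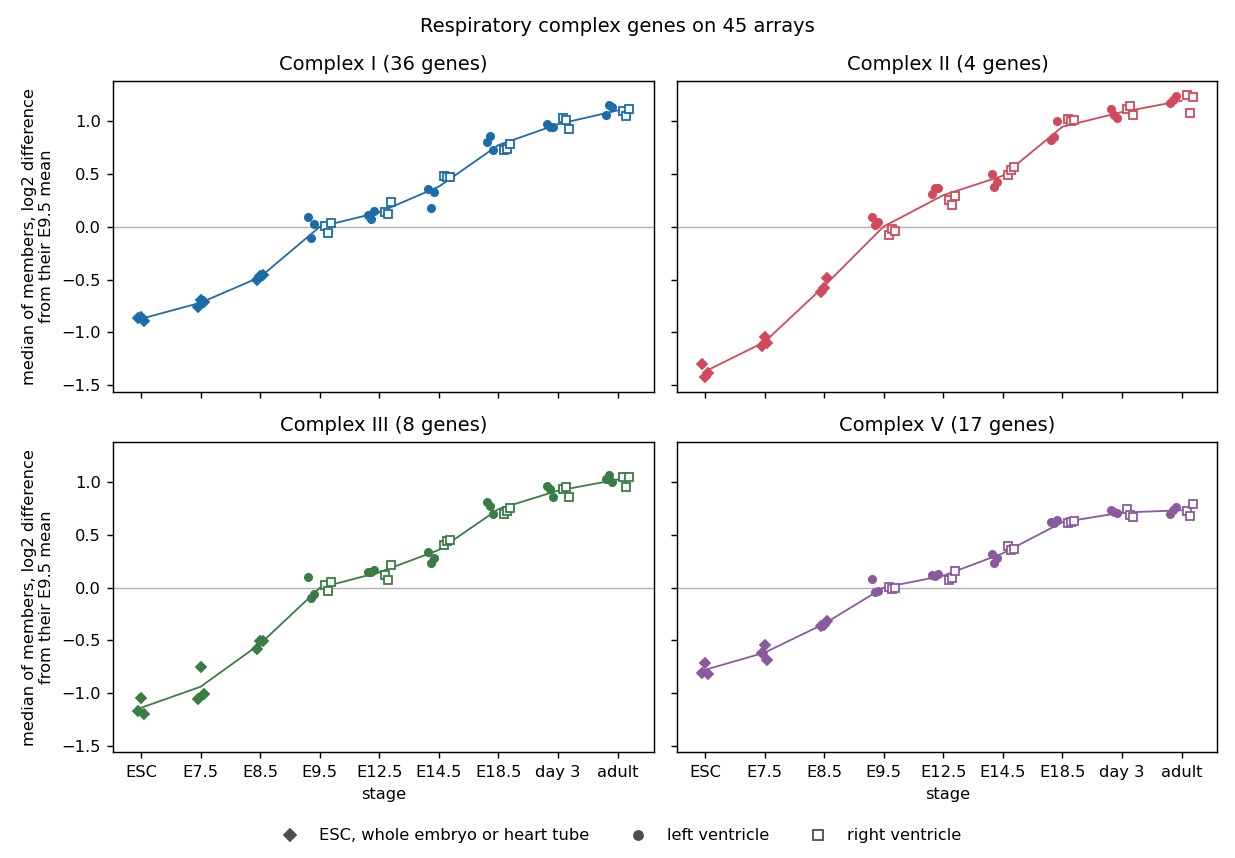
Median of the genes of each complex on each of the 45 arrays, as the log2 difference (vertical axis) from each gene's mean at E9.5, by stage (horizontal axis). Diamonds are ESC, whole embryos and heart tubes, filled circles left ventricles, open squares right ventricles, and the line joins stage means. All 4 complexes climb from ESC to the adult, and complex V ends lowest, with a median of 0.73 in the adult against 1.21 for complex II.

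In adult against E9.5 ventricles, 64 of the 65 genes were higher in the adult and 0 were lower, in a test that called 41.6% of all genes higher and 32.9% lower (limma, adjusted p under 0.05 over all 18194 genes). The median difference was 0.99, beside 0.13 over all genes. Of the members, 32 rose at least 2-fold, and the share of all genes that passed this cut was not counted. By complex, 35 of 36 genes rose in complex I with a median of 1.09, 4 of 4 in complex II with 1.21, 8 of 8 in complex III with 1.03, and 17 of 17 in complex V with 0.73. Genes with a higher level at E9.5 rose less (Spearman correlation -0.59, 62 genes with a mean over 10). The E9.5 level enters both values. The median rise was 0.81 in the 23 genes over 13 at E9.5 and 1.14 in the 39 from 10 to 13. Over 13 lay 14 genes of complex V, with a median of 0.77, and 7 of complex I, with 0.93. From 10 to 13 the medians were 0.56 in complex V (3 genes) and 1.21 in complex I (26). The part of the starting level was not tested. With arrays scaled to housekeeping genes the median of all genes shifted by 0.38 and that of the members became 1.38, so that the size of the rise depends on the scaling. The mean of the 14 cardiomyocyte markers lay between 13.56 and 13.67 on the adult arrays and between 12.52 and 12.94 on the E9.5 arrays. Markers of other cells also moved with this contrast. All 10 fibroblast markers were called higher, with mean levels of 10.72 to 12.25 on the adult arrays and 7.16 to 7.79 on the E9.5 arrays, as were all 10 leukocyte markers, with 8.95 to 9.78 in the adult and 5.44 to 5.80 at E9.5. The 7 erythroid markers averaged 5.31 to 5.67 in the adult and 9.45 to 9.78 at E9.5, and 4 were called lower. The 13 cell cycle genes averaged 5.64 to 6.35 in the adult and 11.10 to 11.28 at E9.5, and all were called lower. The part of these shifts in the result was not tested. The 1 gene not called was Ndufb4, an accessory subunit of complex I whose own probe set had a mean level of 3.41, under the median of every array. Its difference was 0.03 (95% confidence interval -0.21 to 0.28), with stage means between 3.32 and 3.57. A pair of probe sets that Ndufb4 shares with its relatives Ndufb4b and Ndufb4c were higher in the adult by 1.2 and 1.17, so that the value of the dim probe set does not show that the gene stayed level.

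The largest rises were in complex I. Ndufv1, the subunit that binds NADH and the flavin, had 13.57, 13.52 and 13.57 in the adult left ventricle and 13.73, 13.42 and 13.59 in the right, against 11.57, 11.76 and 11.78 in the E9.5 left ventricle and 11.49, 11.43 and 11.68 in the right. All 6 adult arrays lay above all 6 E9.5 arrays, and the difference was 1.95 (SE 0.11, adjusted p = 4.84e-14, limma). Ndufb10, an accessory subunit of the membrane arm, had 13.50, 13.63 and 13.52 in the adult left ventricle and 13.46, 13.40 and 13.54 in the right, against 11.78, 11.45 and 11.69 in the E9.5 left ventricle and 11.69, 11.55 and 11.75 in the right. The groups did not overlap, and it rose by 1.86 (SE 0.09, adjusted p = 2.62e-15, limma). Ndufs7, which carries an iron-sulfur cluster close to the quinone site, rose by 1.66 (SE 0.06, adjusted p = 4.17e-17, limma), and Ndufs1, the largest iron-sulfur subunit, rose by 1.61.

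The smallest rises among the called genes were those of Ndufb1 (0.28, SE 0.10, adjusted p = 0.0174, limma), a small accessory subunit of complex I, Uqcrh (0.39), the hinge protein of complex III, and Atp5g3 (0.40), 1 of 3 genes for subunit c of the ATP synthase. Uqcrh had 13.89, 14.12 and 14.01 in the adult left ventricle and 13.91, 13.95 and 14.13 in the right, against 13.78, 13.34 and 13.39 in the E9.5 left ventricle and 13.73, 13.61 and 13.81 in the right. All adult arrays lay above all E9.5 arrays here too.

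**Figure D2:**
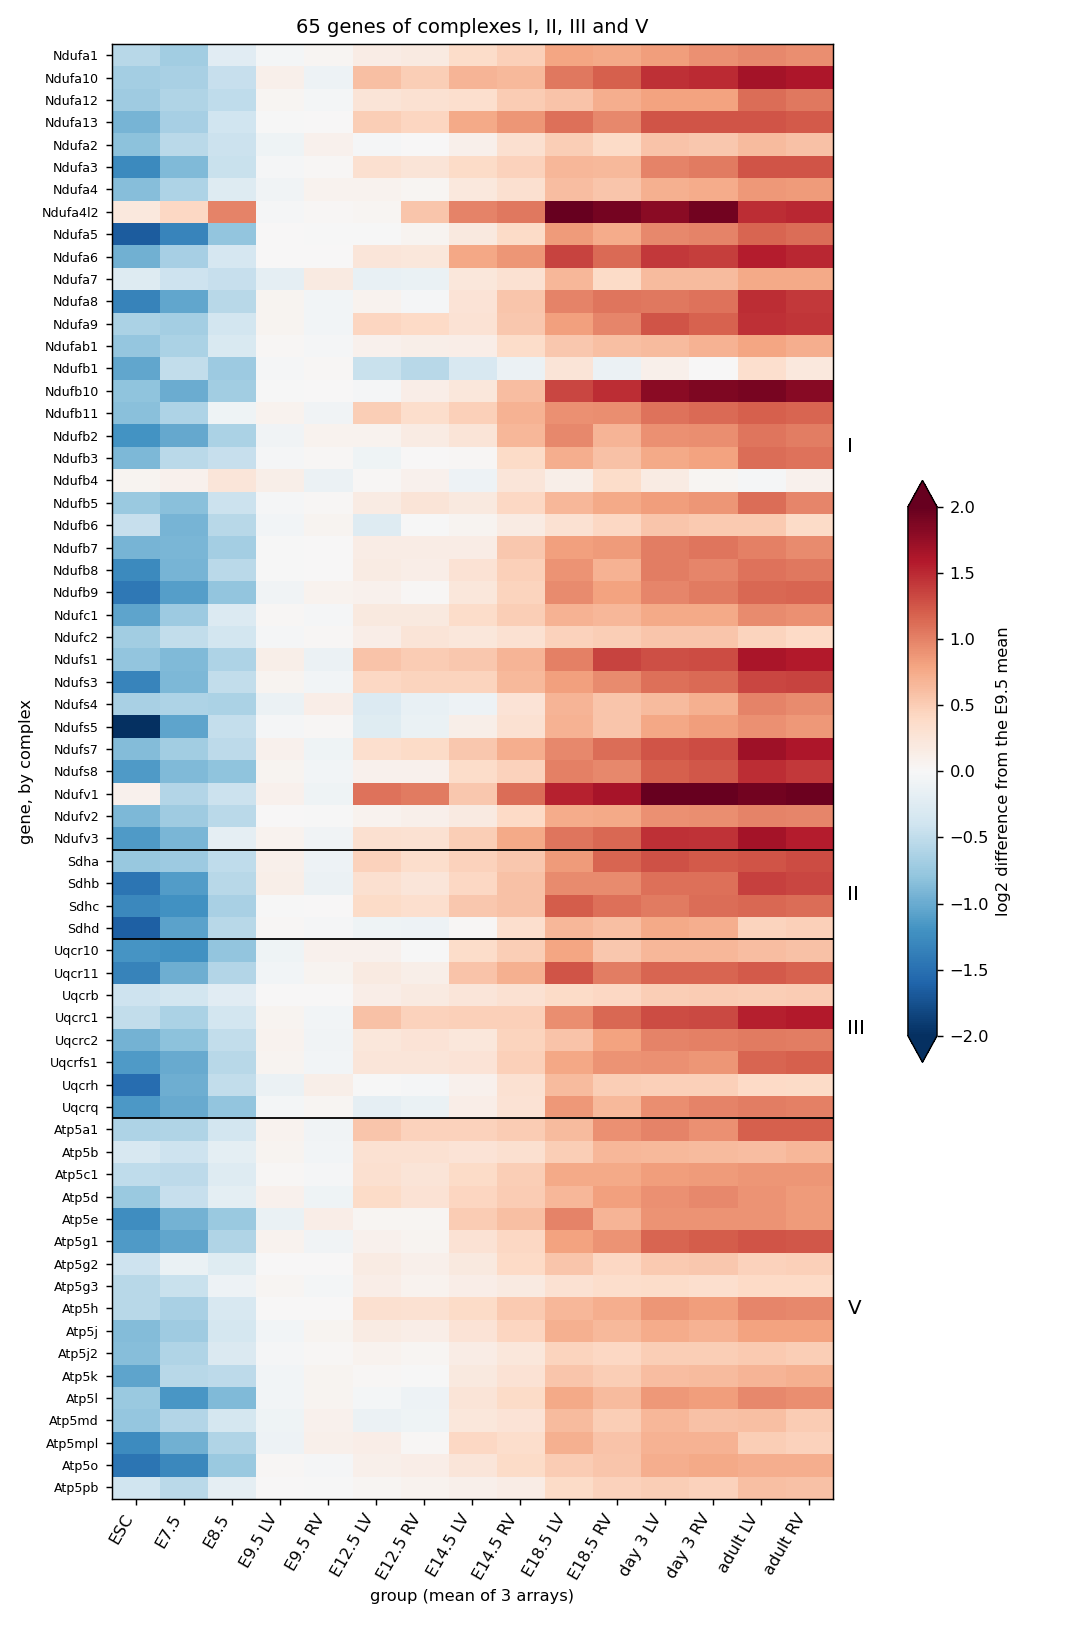
Group means (3 arrays each) of the 65 genes, grouped by complex, as the log2 difference from each gene's mean at E9.5. Blue is lower and red is higher than at E9.5, and the colour scale ends at 2 in both directions. Nearly all genes pass from blue in the earliest groups to red in the latest, Ndufb4 stays pale throughout, and Ndufa4l2 is higher at E8.5 than at E9.5.

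The 5′ regions of Atp5g3 and Sdhd are shown because they hold a short match to the site type of ESRRA, an orphan receptor that regulates respiratory genes. They were read from RefSeq promoter windows (GRCm38.p6) that run from 250 bases before to 50 after a transcript's start. Windows were given for 55 of the 65 genes, 60 in all. The motif TCAAGGTCA, of the ESRRA type, was searched on both strands and occurred in 2 of the 60 windows (3.33%) and in 0.423% of all 32851 windows. The motif CCGGAAGT, of the type bound by GABPA, occurred in 4 windows (6.67%), against 3.89% of all, and AAGATGGCG, of the type bound by YY1, in 6 (10.0%), against 1.4%, each searched on both strands. The letters were set by hand as a common form of each site, with no file as their source, and a planned motif of the NRF1 type was not searched. A match is a run of letters and not a bound site. The sequences are written along the gene, with the match in capitals as its reverse complement.
Atp5g3, chr2:73911277-73911576, minus strand: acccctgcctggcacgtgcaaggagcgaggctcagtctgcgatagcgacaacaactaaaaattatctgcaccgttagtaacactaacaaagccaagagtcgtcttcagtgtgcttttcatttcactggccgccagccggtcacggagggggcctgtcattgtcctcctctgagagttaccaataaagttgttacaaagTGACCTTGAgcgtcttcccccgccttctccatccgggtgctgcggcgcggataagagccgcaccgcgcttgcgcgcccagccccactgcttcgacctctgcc
Sdhd, chr9:50603800-50604099, minus strand: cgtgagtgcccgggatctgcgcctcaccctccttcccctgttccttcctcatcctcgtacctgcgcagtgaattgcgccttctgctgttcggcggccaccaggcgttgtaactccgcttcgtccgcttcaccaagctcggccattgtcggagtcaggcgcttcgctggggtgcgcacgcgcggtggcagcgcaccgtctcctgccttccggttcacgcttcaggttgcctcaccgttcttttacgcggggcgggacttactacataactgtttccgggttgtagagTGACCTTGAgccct

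The match of Atp5g3 began 52 bases before the start and that of Sdhd 36 bases after it. Esrra itself had stage means of 7.68 in ESC, 8.89 at E9.5 and 10.19 in the adult. Of the other factors searched for, Gabpa had 10.34, 9.92 and 9.90 at these stages and Yy1 had 11.26, 10.95 and 9.92. In the adult against E9.5, Sdhd rose by 0.47 and Atp5g3 by 0.40, beside a median of 0.99 over all members.

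In whole embryos at E7.5 against ESC, 31 of the 65 genes were higher and 4 lower, where the same fit called 24.3% of all genes higher and 25.2% lower. The members' median difference was 0.17 and that of all genes -0.02. Complex I had 20 of its 36 genes higher, complex II 2 of 4, complex III 2 of 8 and complex V 7 of 17. Ndufs5, an accessory subunit of complex I, had 11.15, 11.11 and 10.82 at E7.5 and 10.10, 10.09 and 10.10 in ESC, a rise of 0.93 (SE 0.07, adjusted p = 1.92e-10, limma). It went on to the widest range of all members, 2.89 between its ESC and adult means. Sdhd, a membrane anchor of complex II, rose by 0.57 and Uqcrh by 0.56. Ndufv1 went the other way, with 10.99, 11.13 and 10.97 at E7.5 and 11.68, 11.67 and 11.74 in ESC, a difference of -0.67 (SE 0.11, adjusted p = 1.09e-05, limma). Ndufb6, an accessory subunit, fell by 0.48 and Atp5l, subunit g of the ATP synthase, fell by 0.43. Fitted with only these groups, 20 members were called, a count given without the share of all genes. At this step the mean of 10 visceral endoderm markers lay between 11.29 and 12.30 at E7.5 and between 5.26 and 5.32 in ESC, and that of 10 pluripotency markers between 7.60 and 7.91 at E7.5 and between 11.25 and 11.30 in ESC. Their part was not tested.

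In heart tubes at E8.5 against whole embryos at E7.5, 52 genes were higher and 0 lower, beside 20.4% and 28.1% of all genes. The fit of these groups alone called 34 members, a count given without the share of all genes. All 4 genes of complex II and all 8 of complex III rose, as did 26 of 36 in complex I and 14 of 17 in complex V. The largest rises were those of Ndufv3 (0.73, SE 0.07, adjusted p = 7.77e-09, limma), an accessory subunit beside Ndufv1, of Ndufs5 (0.59) and of Ndufa4l2 (0.58). Of the core genes, Sdhb and Sdhc each rose by 0.56, Uqcrfs1, the Rieske iron-sulfur protein, by 0.45, Atp5g1 by 0.44 and Atp5b, the catalytic beta subunit, by 0.22. Ndufv1 (0.15), Ndufs4 (-0.02), an accessory subunit, and Atp5g2 (-0.11) were not called. At this step the 14 cardiomyocyte markers were all higher, and 10 visceral endoderm markers had mean levels of 6.57 to 9.81 at E8.5 and 11.29 to 12.30 at E7.5. Their part in the result was not tested.

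At E9.5 against E8.5, 60 genes were higher and 1 lower, beside 12.8% and 14.1% of all genes, with a median of 0.47 against -0.02 for all genes. The mean of the 14 cardiomyocyte markers lay between 12.52 and 12.94 at E9.5 and between 12.27 and 12.57 at E8.5, and 4 of the 14 were called higher. The visceral endoderm markers averaged 5.31 to 6.46 at E9.5 and 6.57 to 9.81 at E8.5, and 7 erythroid markers 9.45 to 9.78 at E9.5 and 8.64 to 8.81 at E8.5. Their part was not tested. The median rise was 0.46 in complex I, 0.55 in complex II, 0.53 in complex III and 0.35 in complex V. Atp5l rose by 0.89 (SE 0.09, adjusted p = 5.4e-08, limma), Ndufs8, an iron-sulfur subunit of complex I, by 0.81, and Uqcrq, a small complex III subunit, by 0.79. All 4 complex II genes rose by between 0.50 and 0.65. Ndufa4l2 was the gene that fell, by 0.99 (SE 0.11, adjusted p = 6.63e-07, limma).

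**Figure D3:**
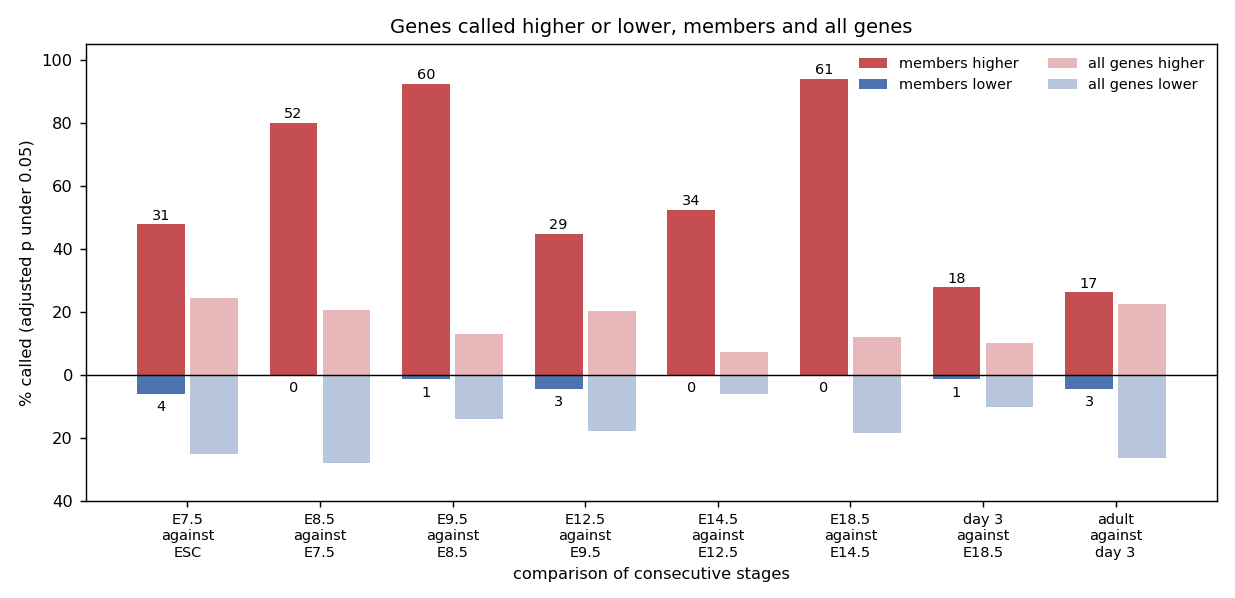
Share of genes called higher (upward bars) or lower (downward bars) at each step between consecutive stages, for the 65 members (dark, with their number) and for all 18194 genes (pale). The members were called higher most often at E9.5 against E8.5 (60) and E18.5 against E14.5 (61), while 12.8% and 11.8% of all genes were called higher at those steps.

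At E12.5 against E9.5, 29 genes were higher and 3 lower, beside 20.1% and 18% of all genes, with a median of 0.15. Ndufv1 had 12.67, 12.76 and 12.68 in the E12.5 left ventricle and 12.67, 12.70 and 12.60 in the right, against E9.5 values of 11.43 to 11.78, and rose by 1.06 (SE 0.11, adjusted p = 3.6e-08, limma), the only member to pass 2-fold here. Ndufs1 and Ndufa10, an accessory subunit, rose by 0.54 each, Uqcrc1, a core protein of complex III, by 0.51 and Atp5a1, the alpha subunit of the ATP synthase, by 0.51. The genes called lower were Ndufb1 (-0.50), Ndufs4 (-0.21, adjusted p = 0.0486) and Ndufs5 (-0.19, adjusted p = 0.0395). Ndufs4 was -0.09 and not called without E9.5 replicate 1, and Ndufs5 was -0.16 and not called without it. With arrays scaled to housekeeping genes, 54 members were called, a count given without the share of all genes. The members' median was then 0.34, and the median of all genes shifted by 0.19. The share of all calls that were higher then went to 82.4%, against 52.7% without the scaling, and Ndufs4 (-0.02) and Ndufs5 (0.00) were not called. At this step the mean of 10 fibroblast markers lay between 9.87 and 10.73 on the E12.5 arrays and between 7.16 and 7.79 on the E9.5 arrays, and its part was not tested.

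At E14.5 against E12.5, 34 genes were higher and 0 lower, beside 7.18% and 6.1% of all genes, with a median of 0.21. Ndufa4l2 rose by 0.72, Ndufa6, an accessory subunit of complex I, by 0.60 (SE 0.07, adjusted p = 1.19e-06, limma) and Atp5e, the epsilon subunit of the ATP synthase, by 0.52. Ndufv1 had 12.63, 11.42 and 12.41 in the E14.5 left ventricle and 12.59, 12.74 and 12.85 in the right, so that its second left array lay apart. Its 3 probe sets differed by -0.24, -1.01 and 0.13 at this step. The left ventricles alone gave 5 called members and the right alone 44. Without E12.5 replicate 2 the count was 20, and without E14.5 replicate 1 it was 22. These counts are given without the shares of all genes. The 7 erythroid markers averaged 7.70 to 9.67 on the E14.5 arrays and 9.32 to 9.81 on the E12.5 arrays, and their part was not tested.

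Of the steps between consecutive stages, E18.5 against E14.5 had the most rises, with 61 genes higher and 0 lower, beside 11.8% and 18.7% of all genes. With single replicates left out, 57 to 61 members were called at E9.5 against E8.5 and 54 to 59 here. The median was 0.36, against -0.01 for all genes, and 35 of 36 genes rose in complex I, 4 of 4 in complex II, 7 of 8 in complex III and 15 of 17 in complex V. Ndufb10 had 12.99, 13.01 and 12.93 in the E18.5 left ventricle and 13.09, 13.16 and 13.12 in the right, against 11.96, 11.66 and 12.04 in the E14.5 left ventricle and 12.25, 12.26 and 12.26 in the right. It rose by 0.98 (SE 0.09, adjusted p = 1.23e-08, limma). Ndufa4l2 rose by 1.19 and Ndufv1 by 0.77, the last by 0.59 without E14.5 replicate 2. The 4 genes not called were Uqcrb (0.12), a small subunit of complex III, Ndufb4 (0.17), Atp5g2 (0.19) and Atp5e (0.28). The range of Uqcrb over all stages, 0.91, was the narrowest after that of the dim Ndufb4 probe set. Uqcrb also had the highest mean level of the members, 14.55, and the part of this level in its range was not tested. At this step the mean of 14 cardiomyocyte markers lay between 13.29 and 13.69 at E18.5 and between 12.90 and 13.10 at E14.5. That of 13 cell cycle genes lay between 9.91 and 10.25 at E18.5 and between 10.41 and 10.89 at E14.5. The mean of 7 erythroid markers lay between 5.42 and 6.34 at E18.5 and between 7.70 and 9.67 at E14.5. Their part was not tested.

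At day 3 against E18.5, which spans birth, 18 genes were higher and 1 lower, beside 9.94% and 10.3% of all genes. The rises were in complex I (13), complex III (2) and complex V (3), and 0 of the 4 complex II genes were called. The median was 0.14. Ndufv1 rose by 0.48 (SE 0.11, adjusted p = 0.00236, limma), Ndufb10 by 0.43 and Ndufa3, an accessory subunit, by 0.36. Atp5g1 rose by 0.34, and Uqcrc2 and Uqcrc1, the core proteins of complex III, by 0.31 and 0.27. Ndufa4l2 was lower by 0.35 with both ventricles averaged (adjusted p = 0.0346, limma), but with right ventricles only the difference was 0.02. Day 3 hearts were frozen and crushed for RNA extraction, a step the labels do not give for E18.5, and handling and stage cannot be told apart.

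In the adult against day 3, 17 genes were higher and 3 lower, beside 22.4% and 26.4% of all genes, so the share of members called higher was near that of all genes. The median difference was 0.08, and 13 of the 17 rises were in complex I. Ndufs7 had 13.99, 13.98 and 13.88 in the adult left ventricle and 13.86, 13.80 and 13.96 in the right, against 13.45, 13.54 and 13.51 in the day 3 left ventricle and 13.58, 13.58 and 13.50 in the right, and rose by 0.38 (SE 0.06, adjusted p = 1.53e-05, limma). Ndufa8 rose by 0.37 and Ndufb3 by 0.32, both accessory subunits. Of the core subunits, Ndufs1 rose by 0.31, Uqcrfs1 by 0.29, Uqcrc1 by 0.26, and Sdhb and Atp5a1 by 0.25. The genes that fell were Ndufa4l2 (-0.37), Sdhd (-0.28, SE 0.07, adjusted p = 0.00205, limma) and Atp5mpl (-0.22), a small membrane proteolipid of the ATP synthase. With arrays scaled to housekeeping genes 39 members were called, a count given without the share of all genes. The members' median was then 0.18. The share of all calls that were higher was 59.2%, against 45.8% without the scaling. The mean of 13 cell cycle genes lay between 5.64 and 6.35 on the adult arrays and between 10.07 and 10.24 on the day 3 arrays. That of 10 leukocyte markers lay between 8.95 and 9.78 in the adult and between 7.58 and 7.85 at day 3. Their part was not tested. Consecutive steps share the arrays of the stage between them, so their values are not independent.

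The 4 genes of complex II rose to different final sizes. Sdhb, its iron-sulfur subunit, had stage means of 11.22 in ESC, 11.56 at E7.5, 12.12 at E8.5, 12.68 at E9.5, 12.96 at E12.5, 13.19 at E14.5, 13.63 at E18.5, 13.78 at day 3 and 14.03 in the adult, each with an SD of at most 0.06 (n = 3). Sdha, which binds the flavin and oxidizes succinate, followed it with 11.02 ± 0.06 in ESC, 11.79 ± 0.17 at E9.5 and 13.07 ± 0.14 in the adult (SD, n = 3). Of the membrane anchors, Sdhc levelled off after E18.5, with 12.76 at E18.5, 12.68 at day 3 and 12.74 in the adult, and its steps there, -0.08 and 0.06, were not called. Sdhd was highest at day 3 (13.38 ± 0.07) and was 13.10 ± 0.12 in the adult, 0.47 above its E9.5 mean, against rises of 1.35 for Sdhb, 1.28 for Sdha and 1.13 for Sdhc (SD, n = 3).

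Subunit c, which forms the rotor ring of the ATP synthase, is encoded by Atp5g1, Atp5g2 and Atp5g3, whose mature proteins are identical. Atp5g1 had stage means of 12.11 in ESC, 12.20 at E7.5, 12.64 at E8.5, 13.24 at E9.5, 13.31 at E12.5, 13.59 at E14.5, 14.09 at E18.5, 14.43 at day 3 and 14.49 in the adult. It was called higher at E8.5, E9.5, E14.5, E18.5 and day 3, and rose by 1.25 in the adult against E9.5 (SE 0.06, adjusted p = 2.45e-15, limma). Atp5g2 had 12.88, 12.86 and 12.97 in the adult left ventricle and 13.05, 12.67 and 13 in the right, against 12.48, 12.42 and 12.41 in the E9.5 left ventricle and 12.45, 12.46 and 12.39 in the right, a rise of 0.47. Atp5g3 had a stage mean of 13.64 in ESC, 14.19 at E9.5 and 14.59 in the adult. Over all stages the range was 0.94 in Atp5g2 and 0.96 in Atp5g3, which is less than the rise of Atp5g1 after E9.5 alone. The mean level over the arrays was 14.295 in Atp5g3, 13.55 in Atp5g1 and 12.64 in Atp5g2. The highest value of any probe set was 15.18. The part of the level in these ranges, such as a limit on differences near the top of the scale, was not tested. The difference between the rises of these genes was not tested either.

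**Figure D4:**
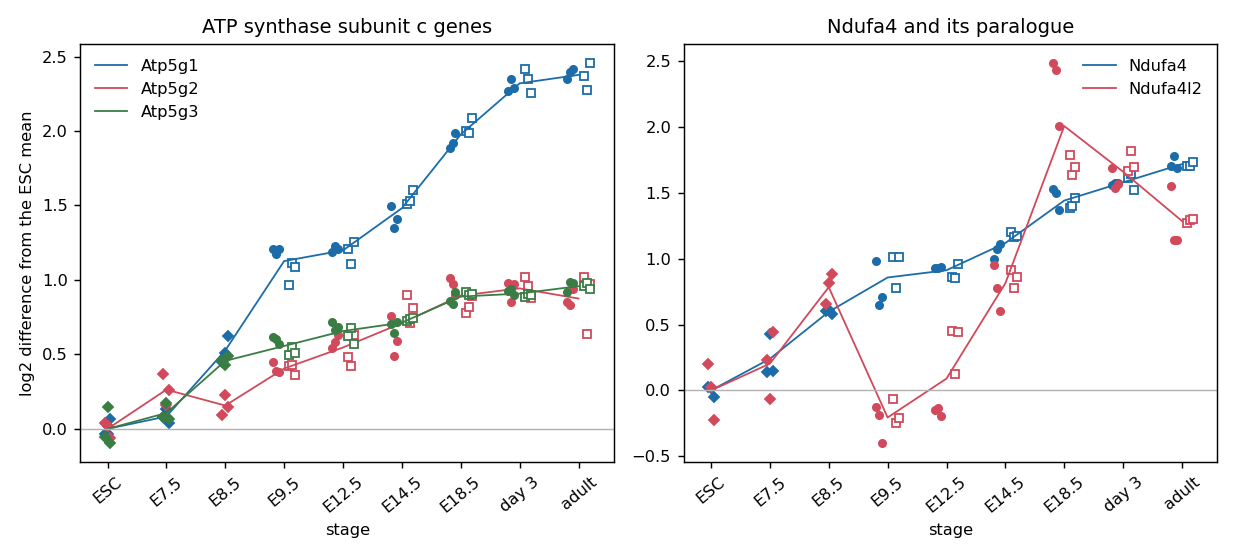
Each array's log2 difference from the ESC mean (vertical axis) by stage for the subunit c genes Atp5g1, Atp5g2 and Atp5g3 (left panel) and for Ndufa4 and Ndufa4l2 (right panel). Diamonds are ESC, whole embryos and heart tubes, filled circles left ventricles, open squares right ventricles, and lines join stage means. Atp5g1 leaves the other subunit c genes from E9.5 on, and Ndufa4l2 dips at E9.5 (6.57) and peaks at E18.5 (8.78).

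Ndufa4l2 is a paralogue of Ndufa4 known as a target of the hypoxia-inducible factor HIF-1. After Ndufb4 it had the lowest correlation with the median of the members with a mean level over 10, which does not include it. Its stage means were 6.78 ± 0.21 in ESC, 6.98 ± 0.26 at E7.5, 7.56 ± 0.12 at E8.5, 6.57 ± 0.11 at E9.5, 6.87 ± 0.08 at E12.5, 7.59 ± 0.11 at E14.5, 8.78 ± 0.14 at E18.5, 8.43 ± 0.03 at day 3 and 8.06 ± 0.11 in the adult (SD, n = 3). It was the only member called lower at E9.5 against E8.5 and at day 3 against E18.5. Ndufa4, first described as a subunit of complex I and later assigned to cytochrome oxidase, had stage means of 12.69 in ESC, 13.55 at E9.5, 14.13 at E18.5, 14.27 at day 3 and 14.40 in the adult, with no step called lower. The adult exceeded E9.5 by 1.49 in Ndufa4l2 and by 0.86 in Ndufa4.

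Genes that work beside these complexes did not all follow the same course. In the adult against E9.5, 11 of 15 nuclear subunits of complex IV were higher and 4 lower, with a median of 0.54. Cox7c was among those lower. Its dim probe set had stage means between 4.02 in the adult and 6.89 in ESC, which does not show that the gene fell. The largest changes were rises of 7.07 in Cox8b, 3.25 in Cox6a2 and 3.05 in Cox7a1, all heart and muscle isoforms. Of 14 complex I assembly factors, 9 were higher and 3 lower with a median of 0.20, and the largest rises were those of Ndufaf3 (1.40), Ecsit (1.23) and Tmem70 (1.02). Of 13 assembly factors and regulators of the other complexes, 12 were higher and 0 lower with a median of 0.52, led by Ttc19 (1.66), which acts in complex III assembly. A list of 14 genes of cytochrome c and ubiquinone included Cyc1 of complex III. Of the 14, 12 were higher, with 6.85 in Coq8a and 5.01 in Coq10a. The whole fit called 41.6% of all genes higher at this contrast, as given above.

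A list of 10 genes, mainly carriers and kinases that move ATP, ADP and phosphate, included the uncoupling protein Ucp3. Of the 10, 8 were higher in the adult than at E9.5 and 2 lower. Ckmt2, the mitochondrial creatine kinase of muscle, rose by 8.68, of which 4.65 came at E18.5 against E14.5. Slc25a4, the adenine nucleotide carrier of heart and muscle, had stage means of 12.81 at E7.5, 14.01 at E8.5 and 14.82 in the adult. Slc25a5, its more widely expressed paralogue, had 13.58 at E7.5, 13.60 at E8.5 and 13.45 in the adult. Among 18 regulators of mitochondrial gene expression, 7 were higher and 7 lower at this contrast. Ppargc1a, the coactivator PGC-1 alpha, had stage means of 3.60 at E7.5, 8.83 at E8.5, 9.42 at E9.5, 10.83 at E18.5 and 10.46 in the adult, and Esrrg, an orphan receptor that works with it, had 4.55 at E7.5, 9.42 at E8.5 and 9.62 in the adult. Tfam, which packs and transcribes mitochondrial DNA, had 10.73 at E7.5, 10.35 at E9.5 and 10.07 in the adult. Ppara, a nuclear receptor of fatty acid oxidation genes, rose by 3.64 in the adult against E9.5. Pprc1 went the other way, with 8.92 at E9.5 and 7.07 in the adult. Lower adult means were also those of Gabpb1 (7.66 at E9.5, 6.39 in the adult) and Yy1 (10.95 and 9.92), while Polrmt had 8.59 at E9.5 and 9.96 in the adult.

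Left and right ventricles were compared at 6 stages. Few members differed, and the counts changed when single arrays were left out. At E9.5, 1 member was higher in the left ventricle and 0 lower, beside 2.01% and 1.5% of all genes. Sdhb had 12.82, 12.80 and 12.75 on the left and 12.49, 12.69 and 12.53 on the right, a difference of 0.22 (SE 0.06, adjusted p = 0.0384, limma), and left and right did not overlap. Without E9.5 left replicate 2 or 3, or right replicate 1 or 3, 0 members were called, without left replicate 1 there were 5 and without right replicate 2 there were 3. At E12.5, 0 members were higher and 1 lower, beside 0.346% and 0.918% of all genes. Ndufa4l2 had 6.63, 6.64 and 6.58 on the left and 7.23, 6.90 and 7.22 on the right, a difference of -0.50 (SE 0.13, adjusted p = 0.0319, limma), and the sides did not overlap. It was not called without left replicate 1, 2 or 3 or without right replicate 1 or 3, with differences of -0.45 to -0.52.

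At E14.5, 13 members were lower in the left ventricle and 0 higher, beside 4.27% and 4.24% of all genes, but 0 were called without left replicate 2. Of the 13 genes, 12 were of complex I and the other was Sdhd. The 6 with the smallest p were Ndufb7 (-0.37, SE 0.08, adjusted p = 0.00272, limma), Ndufb10 (-0.37), Ndufab1 (-0.23), the acyl carrier protein, Ndufv1 (-0.57), Ndufv3 (-0.28) and Ndufb3 (-0.36). Ndufb7, an accessory subunit, had 13.21, 12.81 and 13.17 on the left and 13.51, 13.43 and 13.37 on the right, with the second left array lowest. That array was among those marked above, with the list named for visceral endoderm 1.61 over the other replicates. Relative to E9.5, the median of the 65 genes was 0.35, 0.23 and 0.31 on the left arrays and 0.46, 0.44 and 0.44 on the right, so that all left arrays lay below all right arrays. Without left replicate 2 the members' median difference was -0.12, against -0.14 with it, 16 of the 65 members had an unadjusted p under 0.05, beside 16.4% of all genes, and 2.45% of all genes were called after adjustment. Left out singly, the other E14.5 arrays gave 18 called members (left 1), 6 (left 3, right 3) and 3 (right 1, right 2).

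**Figure D5:**
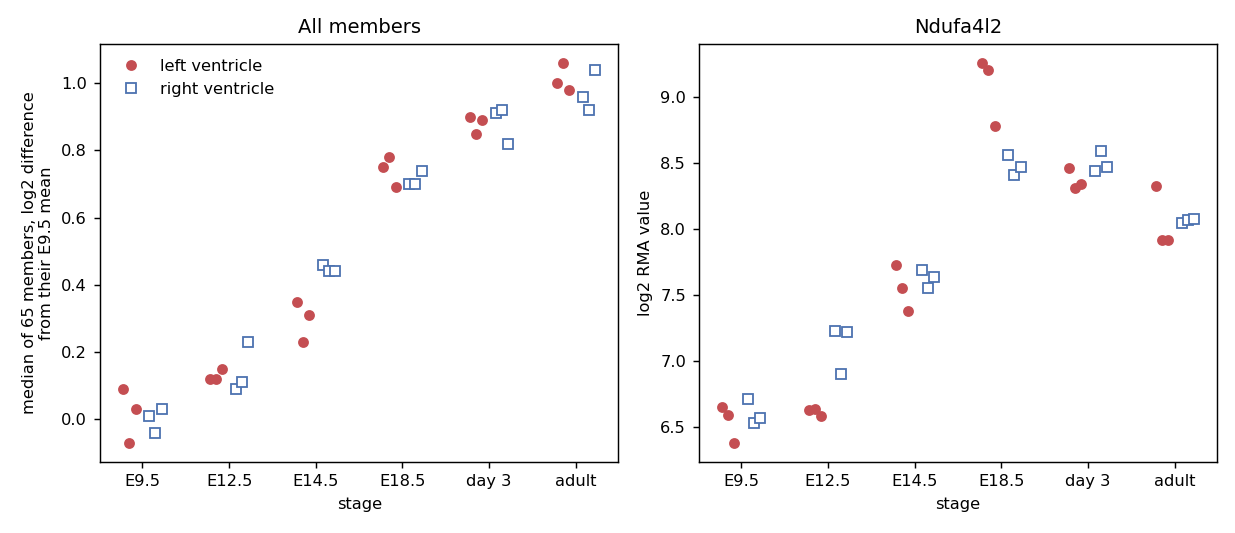
Left ventricle (filled circles) and right ventricle (open squares) on each array by stage. The left panel plots the median of the 65 genes as the log2 difference from their E9.5 means, and the right panel the log2 level of Ndufa4l2. At E14.5 the left medians are 0.23 to 0.35 and the right 0.44 to 0.46. Ndufa4l2 is lower on the left at E12.5 and higher on the left at E18.5.

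At E18.5, 1 member was higher in the left ventricle and 1 lower, beside 2.84% and 2.12% of all genes. Ndufa4l2 had 9.26, 9.21 and 8.78 on the left and 8.56, 8.41 and 8.47 on the right, a difference of 0.60 (SE 0.13, adjusted p = 0.00421, limma). The sides did not overlap, and without left replicate 2, a marked array, the difference was 0.54 and not called. Uqcrc2 had 13.42, 13.50 and 13.68 on the left and 13.76, 13.76 and 13.79 on the right, a difference of -0.24 (adjusted p = 0.0484, limma), and the sides did not overlap. Of the 6 arrays left out singly, Uqcrc2 was called without left replicate 3 (-0.31) and not called without any of the others (-0.18 to -0.24). Left replicate 3 stood apart from the other left arrays in several members. Sdha had 12.43, 12.40 and 13.04 on the left and 12.95, 13.02 and 12.87 on the right, and Atp5e had 13.90, 13.98 and 13.50 on the left and 13.44, 13.50 and 13.53 on the right. In both genes the third left array lay near the right ones. Without left replicate 3, 16 members were called, 9 higher and 7 lower, and 15.1% of all genes.

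At day 3 and in the adult 0 members were called, where the test called 0.0055% and 0.0165% of all genes (1 and 3 genes, limma), and 0 members had an unadjusted p under 0.05, beside 3.19% of all genes at day 3 and 6.19% in the adult. The members' differences lay between -0.13 and 0.12 at day 3 and between -0.10 and 0.15 in the adult. Averaged over the 6 stages, 0 members were called (2.98% of all genes, limma), 4 had an unadjusted p under 0.05 (15.5% of all genes), and the differences lay between -0.11 and 0.08. The limma F-test of whether the left-right difference depended on the stage called 1 member, Ndufa4l2 (adjusted p = 0.00367), beside 5.85% of all genes. The count was 14 without E18.5 left replicate 3, 6 without E14.5 left replicate 1, 3 without E9.5 left replicate 1 or adult right replicate 1, and 1 or 2 without any other single array. The next smallest p were those of Sdhb (adjusted p = 0.0647), Ndufa9 (0.0679), Ndufb7 (0.0697) and Uqcrc2 (0.0762).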

How the data were processed

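Gene expression was measured on 45 Affymetrix arrays, grouped by stage and ventricle as the labels state. The deposited values are log2 levels per probe set that the authors made with RMA, per the submitters' processing notes, whose version is not given in the sources used here. RMA corrects the background, normalizes by quantiles and summarises probes, so a change shared by most genes is removed, and differences of dim genes are understated. There were 45101 probe sets, including 64 controls. The annotation listed 35890, of which 34958 had 1 gene symbol and 932 several. Each of 18194 genes was represented by its probe set of highest mean level, and 34754 probe sets matched a RefSeq gene (GRCm38.p6 names). Of the 65 members 38 had several probe sets, 62 had a mean over 10, and no filter on low values was applied. Identical values were found in 0 pairs of arrays.

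Two-sided tests used lmFit and eBayes of limma 3.58.1 (R 4.3.3). P-values were adjusted over all genes by Benjamini-Hochberg, with a threshold of 0.05. For stages, left and right ventricles of the same number were averaged first, and the 27 resulting values entered a single fit of 9 stages, which left 18 residual degrees of freedom. The ventricles were compared in a fit of the 45 arrays, which left 30. The scripts were tested on simulated data. The replicates are described as biological, and p-values measure the spread between these samples. Deviations of same-numbered ventricles from their group means correlated at E12.5 (0.271, 0.321 and 0.369) and not at every number elsewhere, and the labels state no pairing. The number of arrays limits the precision.

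The members, lists, tests and alternatives were chosen with earlier results of these data known. The text names, for each step between stages, the 3 largest rises and falls among called members, for the adult against E9.5 also the 3 smallest rises and those not called, for the ventricles up to 6 called members per direction, the 5 smallest p of the F-test, the extremes of the range over stages, a fixed set of core subunits, members with probe sets of opposite direction, and the 3 largest changes of other lists. Genes not called at E18.5 were named after their values were seen. One gene of the fixed set is not reported here. Python 3.11.15 with pandas 2.3.3 and NumPy 2.4.6 was used for tables, and Matplotlib 3.10.9 for plots.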

Additional observations from a re-analysis of the deposited data

Results flagged for a closer look

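The left-right difference of Ndufa4l2 depended on the stage by the F-test over 6 stages (adjusted p = 0.00367, limma). The left minus right difference was -0.06 at E9.5, -0.50 at E12.5, -0.07 at E14.5, 0.60 at E18.5, -0.13 at day 3 and -0.01 in the adult. It was called at E12.5 and at E18.5, in opposite directions. Groups of 3 arrays were not tested for single arrays far from the others.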

How the results depend on the processing

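The number of arrays, RMA's equal distributions and probe sets that cannot tell all paralogues apart limit these results. With only the groups compared in the fit, 20 members were called at E7.5 and 34 at E8.5, and for left against right 0 at E9.5, 1 at E14.5 and 0 at E18.5. With the replicate block the counts were 16 at E7.5, 28 at E8.5 and 12 in the adult against day 3, and 0 at E9.5, 5 at E14.5 and 1 at E18.5 for the ventricles; the block uses up degrees of freedom, and the numbers are not stated to pair samples. With housekeeping scaling 54 were called at E12.5 and 39 in the adult against day 3, and 0 at E12.5 and 7 at E14.5 between ventricles. It moved the share of all calls that were higher to 61% at E8.5 (42.1% unscaled), 36.5% at E9.5 (47.7%), 52.3% at E18.5 (38.7%) and 73.3% for the adult against E9.5 (55.8%), and between ventricles to 63.4% at E14.5 (49.8%). At a threshold of 0.01 the counts were 22 at E14.5, and between ventricles 0 at E9.5, 0 at E12.5, 1 at E14.5 and 1 at E18.5. Left ventricles alone gave 5 at E14.5. Without marked arrays the ventricles gave 0 at E14.5 and 1 at E18.5. The F-test called 8 with a trended robust eBayes, 7 with a filter on dim genes and 4 with the mean of probe sets. The cause of these shifts was not tested. Shares of all genes called are not given beside the counts in this section, so these counts alone do not set the members apart from other genes.

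Leaving out each replicate in turn gave 32 to 37 called members at E7.5, 44 to 51 at E8.5, 57 to 61 at E9.5, 27 to 31 at E12.5, 20 to 34 at E14.5, 54 to 59 at E18.5, 13 to 16 at day 3, 17 to 21 in the adult against day 3 and 63 to 64 against E9.5. Between ventricles the ranges were 0 to 5 at E9.5, 0 to 1 at E12.5, 0 to 18 at E14.5, 0 to 16 at E18.5, 0 at day 3 and in the adult, 0 to 1 for the mean and 1 to 14 for the F-test.

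Of 6563 repeats of single named members, 8 changed sign where either value was called, and 242 did so where neither was called. Of the 8, those with the mean of probe sets were Atp5o at E7.5 (-0.14), Ndufb8 (-0.08) and Atp5c1 (-0.14) at E8.5, Ndufa3 (-0.01), Ndufab1 (-0.38) and Atp5c1 (-0.09) at E12.5, and Ndufa3 in the adult against day 3 (-0.06). With right ventricles only, Ndufa4l2 was 0.02 at day 3. A further 323 repeats lost their call and 126 gained one.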

Other observations

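The arrays also held 10 probe sets that the annotation gives to more than 1 gene, which the naming rule leaves out, and several of them carry subunits of complex I. The 2 bright ones of Ndufb4 and its relatives Ndufb4b and Ndufb4c had means of 13.69 and 13.62 in the adult and 12.49 and 12.45 at E9.5, differences of 1.2 and 1.17, while the dim probe set named for Ndufb4 alone differed by 0.03. The bright probe set of Ndufa11 and Ndufa11b had 13.63 in the adult and 12.25 at E9.5, a difference of 1.38, and that of Ndufs6 and Ndufs6b had 13.94 in the adult and 12.71 at E9.5, a difference of 1.23. The probe set shared by Ndufs5 and Ndufs5-ps differed by 0.86. These values are given without a test.

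In 11 members, probe sets were called in opposite directions in at least 1 step or in the adult against E9.5: Atp5c1, Atp5g2, Atp5o, Ndufa3, Ndufab1, Ndufb8, Ndufc2, Ndufs4, Ndufs8, Sdha and Uqcrq. In Ndufab1, in the adult against E9.5, the probe set used differed by 0.76 at a mean level of 13.38, and the dimmest differed by -1.86 at a mean level of 4.58. In Atp5o both were bright at E7.5 against ESC, with 0.16 at a mean level of 13.73 and -0.45 at 12.62.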
